A study of Mus musculus with 12 samples.

Results

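The genes described here are 35 genes of the ATF4 programme: 6 regulators, 3 stress effectors, 10 genes of amino acid synthesis, 5 amino acid transporters and 11 cytosolic tRNA synthetases. They were chosen by name from the deposited tables of 41128 genes, and all 35 were present. All 35 were also among the 15347 genes that passed the filter on low counts. RNA was measured in mouse haemogenic endothelium, the endothelium that gives rise to blood cells, derived from embryonic stem cells in which doxycycline (Dox) switches on a Sox7 transgene. The line is a derivative of Ainv18. Every group began as FLK1+ cells isolated from day 3.5 embryoid bodies and then grown for 48 h in liquid blast medium. The cells then stayed for 6, 12 or 24 h without Dox or with Dox at 1 µg/ml, with 2 libraries in each of the 6 groups. The question of the series is how induction of SOX7, an endothelial transcription factor, alters gene expression at this stage. No label states that replicates came from separate cultures. The p-values therefore reflect only how far these libraries spread, and that spread may be technical. The untreated cells carry the same transgene and lacked Dox, and no group of cells without the transgene but with Dox was analysed here.

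ATF4 is a transcription factor whose mRNA is translated more efficiently when stress kinases phosphorylate the initiation factor eIF2, for example when amino acids are scarce, when haem is lacking or when the endoplasmic reticulum is stressed. It binds composite C/EBP-ATF elements together with a partner and switches on genes that make amino acids, import them and load them onto tRNA, as well as regulators that limit or end the response. Because ATF4 is controlled largely at translation, its mRNA level and the level of its targets need not move together.

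Total counts per library ran from 13485804 to 35250074. Sox7 stood at 313.7 to 379 CPM (counts scaled to library size) in the 6 Dox libraries and at 52.1 to 81.7 CPM in the 6 untreated libraries, so each library's Sox7 level matches its label. The summed level of 12 endothelial markers was 2179 to 3158 CPM over the 12 libraries, and that of 6 pluripotency markers was 4.96 to 9.19 CPM. The sum of 10 smooth muscle and mesenchyme markers was 7331 to 10414 CPM, above the endothelial sum in every library. Among these 10 markers the highest count in a library ran from 569 for Cnn1 to 170148 for Acta2, with 84218 for Col1a1. The order of the sums thus rests on a few abundant transcripts and does not give the share of each cell type. Whether these transcripts come from separate cells was not tested. The blood markers differed between the arms. At 24 h, 11 of 12 myeloid markers were called lower with Dox and 0 higher, and 11 of 12 erythroid markers lower and 1 higher. All 8 tested of 10 megakaryocyte markers and all 12 interferon response genes were called lower. Of 12 endothelial markers 6 were called higher and 1 lower. Among the 10 smooth muscle and mesenchyme markers 0 were called higher and 5 lower. In bulk RNA, fewer cells of a type and less RNA per cell cannot be told apart.

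With Dox, 1 of the 35 members was called at 6 h, 4 at 12 h and 6 at 24 h. The member at 6 h was Slc7a11, the cystine importer, which was lower. At 12 h Slc7a11 was lower, and Vldlr, Cbs and Iars were higher. At 24 h Slc7a11, Trib3, Ddit3, Atf5, Mthfd2 and Slc7a5 were all lower, and no member was called higher with all 12 libraries in the fit. Without Dox replicate 1 at 24 h, 7 members were called lower and 1 higher (Slc7a1). The threshold for a call was an adjusted p of 0.05 in edgeR's quasi-likelihood test, with p-values adjusted by the Benjamini-Hochberg method across every tested gene. Of all tested genes, 1.54% were called at 6 h, 6.76% at 12 h and 11% at 24 h. The share of members called was 2.86%, 11.4% and 17.1%. By direction, 0.821% of all genes were called higher and 0.717% lower at 6 h, 3.26% and 3.51% at 12 h, and 4.5% and 6.52% at 24 h. The members' share at 24 h, all in the lower direction, is thus set against 6.52%.

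Across all 35 members, called or not, the prevailing direction differed by hour. The median log2 fold change of the 35 members was -0.06 at 6 h, 0.06 at 12 h and -0.11 at 24 h, and that of all tested genes was 0.01, -0.01 and -0.01. At 24 h, 30 of the 35 members had a fold change below 0, against 24 at 6 h and 12 at 12 h. Of all 15347 tested genes, 7977 were below 0 at 24 h, 7420 at 6 h and 8007 at 12 h. The members were measured in the same libraries, so their signs are not independent of each other. The Dox libraries lay clear of the untreated libraries for 26 members at 24 h, 25 of them lower and 1 higher. Of all tested genes, 26% lay clear and lower at that hour and 23.5% clear and higher. At 12 h, 15 members lay clear and higher and 5 clear and lower, where 23.2% and 25.7% of all genes did. At 6 h the counts were 2 higher and 14 lower, where 19.7% of all genes did so in each direction.

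**Figure D1:**
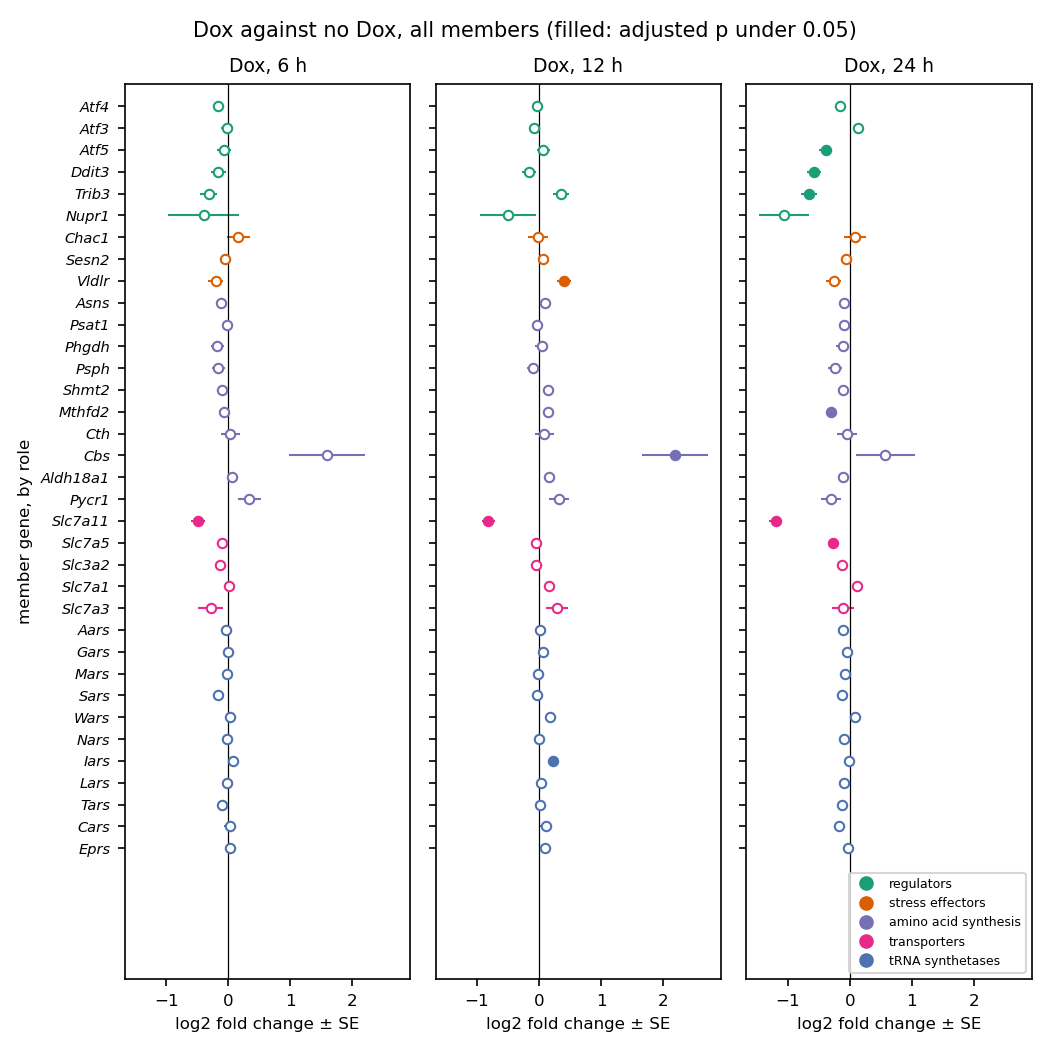
Log2 fold change of Dox against no Dox (x axis, with SE bars) for all 35 members (y axis, grouped and coloured by role) at 6, 12 and 24 h. Filled points passed the adjusted p threshold: 1 at 6 h, 4 at 12 h and 6 at 24 h, the last all below 0.

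The letters of the composite C/EBP-ATF element were common in the promoters of these genes. The members were picked as genes of the ATF4 programme, and ATF4 binds this element. A share above that of all windows thus follows in part from the choice and is a description only. RefSeq promoter windows (GRCm38.p6, 250 bases before to 50 bases from each start site) were matched for 27 of the 35 members, which gave 31 windows. The letters TGATGNAA were searched on both strands. They were found in the windows of 12 of these 27 members (44.4%), or in 12 of 31 windows (38.7%), and in 3.97% of all 32851 RefSeq windows. The 12 were Atf3, Trib3, Nupr1, Chac1, Vldlr, Asns, Pycr1, Slc7a11, Aars, Gars, Iars and Tars. The cyclic AMP response element TGACGTCA was in 0 of the 27 members' windows and in 1.79% of all windows. The core letters of the antioxidant response element, TGACNNNGC, through which NRF2 acts, were in the windows of 7 members (25.9%). By window, they were in 7 of 31 (22.6%) and in 12.4% of all windows. A stretch from 120 bases before to 30 bases from the start site is printed for 5 members, 5′ to 3′ on the gene's strand, with matches to TGATGNAA or TGACNNNGC in capitals. Slc7a11 and Trib3 are shown because they had the largest called falls with Dox at 24 h, and Asns, Iars and Aars because they carry the same letters and showed smaller shifts or none that passed the test.
Slc7a11 (chr3:50443584-50443733, minus strand): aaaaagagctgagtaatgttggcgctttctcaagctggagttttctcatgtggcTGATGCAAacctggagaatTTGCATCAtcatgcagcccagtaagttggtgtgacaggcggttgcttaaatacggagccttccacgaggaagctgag
Trib3 (chr2:152344031-152344180, minus strand): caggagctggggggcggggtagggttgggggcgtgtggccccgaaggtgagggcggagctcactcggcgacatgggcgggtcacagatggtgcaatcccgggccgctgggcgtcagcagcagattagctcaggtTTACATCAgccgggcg
Asns (chr6:7693180-7693329, minus strand): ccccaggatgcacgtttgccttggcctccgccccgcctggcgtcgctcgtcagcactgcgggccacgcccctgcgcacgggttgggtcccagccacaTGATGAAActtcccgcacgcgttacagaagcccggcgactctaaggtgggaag
Iars (chr13:49682010-49682159, plus strand): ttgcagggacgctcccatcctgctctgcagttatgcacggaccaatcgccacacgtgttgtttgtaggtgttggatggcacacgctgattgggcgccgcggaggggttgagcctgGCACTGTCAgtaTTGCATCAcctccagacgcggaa
Aars (chr8:111033722-111033871, plus strand): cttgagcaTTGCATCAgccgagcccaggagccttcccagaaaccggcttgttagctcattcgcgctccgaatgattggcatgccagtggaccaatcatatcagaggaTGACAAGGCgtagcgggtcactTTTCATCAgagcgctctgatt
Slc7a11 holds 2 matches to TGATGNAA, on opposite strands, starting 66 and 47 bases before its start site. The match of Asns starts 23 bases before the start site, and those of Trib3 and Iars start at base 15 and base 8 from it. Aars holds 2 matches and also a match to TGACNNNGC, and Iars holds 1 of each. The windows of Ddit3, Atf5 and Mthfd2, which fell at 24 h, held none of the 3 motifs, which says only that these letters are not in those windows. A match is a description of the sequence and was not measured as a binding site here.

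Slc7a11 (ENSMUSG00000027737, chromosome 3, 50364936 to 50443613, minus strand) encodes the light chain of the exchanger that imports cystine and exports glutamate. Its level is given as RPKM, reads per kilobase of transcript scaled to library size. At 6 h it was 1.76 and 1.64 RPKM without Dox and 1.31 and 1.13 RPKM with Dox. At 12 h it was 2.22 and 2.05 RPKM without Dox and 1.27 and 1.11 RPKM with Dox. At 24 h it was 2.73 and 3.13 RPKM without Dox and 1.20 and 1.40 RPKM with Dox. The arms did not overlap at any hour, and the 6 Dox libraries stayed within a narrow band while the untreated libraries stood higher at each later hour. The log2 fold change with Dox was -0.49 ± 0.11 (SE) at 6 h (adjusted p = 0.018), -0.82 ± 0.11 at 12 h (adjusted p = 6.1e-06) and -1.19 ± 0.11 at 24 h (adjusted p = 1e-09), in edgeR's quasi-likelihood test.

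Slc7a11 was the only member whose Dox effect at 24 h was called different from that at 6 h. The difference of the effects was -0.71 ± 0.16 (adjusted p = 0.0096), where 2.08% of all tested genes were called in this test. From 6 to 24 h its level rose without Dox by 0.79 ± 0.10 on the log2 scale (adjusted p = 3.6e-07), and with Dox the change was 0.08 ± 0.12 (adjusted p = 0.60). These comparisons share libraries, so they are not independent of each other. Leaving out untreated replicate 1 (adjusted p = 0.27) or Dox replicate 2 (adjusted p = 0.43) ended the call at 6 h, as did limma on RPKM (adjusted p = 0.28). The calls at 12 and 24 h were kept under all 14 alternatives. The difference between the effects was lost in 6 of 18 alternatives, with an adjusted p of up to 0.21: without Dox replicate 1 at 6 h (0.089) or 24 h (0.11), without untreated replicate 2 at 6 h (0.067) or 24 h (0.14), and in limma on RPKM with either pseudocount.

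Blood cell markers were also lower with Dox, to an extent that differed by hour and list. The summed level of the 12 myeloid markers was 243.5 to 254 CPM without Dox and 98.4 to 105.1 CPM with Dox at 24 h. At 6 h it was 78.6 to 80.5 CPM without Dox and 65.7 to 69.7 CPM with Dox, with 3 myeloid markers called lower and 1 higher. At that hour 3 of 8 tested megakaryocyte markers were called lower and 0 higher, with sums of 94.6 to 97.5 CPM with Dox and 132.2 to 133.6 CPM without it. Of the 12 erythroid markers, 4 were called lower and 1 higher at 6 h. At 12 h, 5 erythroid markers were called lower and 2 higher, and their sum ran from 2067 to 2189 CPM with Dox, inside the untreated range of 1460 to 2378 CPM. At 12 h, 4 myeloid markers were called lower and 1 higher, and 4 interferon genes lower and 0 higher. The 12 interferon response genes summed to 221.5 to 242 CPM without Dox and 51.7 to 52.8 CPM with Dox at 24 h, and 0 of 12 were called at 6 h. Among 12 further NRF2 target genes, 6 were called lower and 1 higher at 24 h, among them Srxn1 at -0.40 ± 0.06 and Nqo1 at -0.54 ± 0.15. Srxn1, which repairs oxidised peroxiredoxins, was already lower at 6 h, at -0.26 ± 0.06 (adjusted p = 0.019). The erythroid markers summed to 2476 to 2764 CPM without Dox and 1279 to 1557 CPM with Dox at 24 h, and the megakaryocyte markers to 191.3 to 198 CPM and 99.6 to 108 CPM. No myeloid, erythroid or endothelial marker was at 0 in any library, and at 24 h no megakaryocyte or interferon gene was. The part of these groups in the lower level of Slc7a11 at each hour, or in the 24 h falls of the other members, was not tested.

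**Figure D2:**
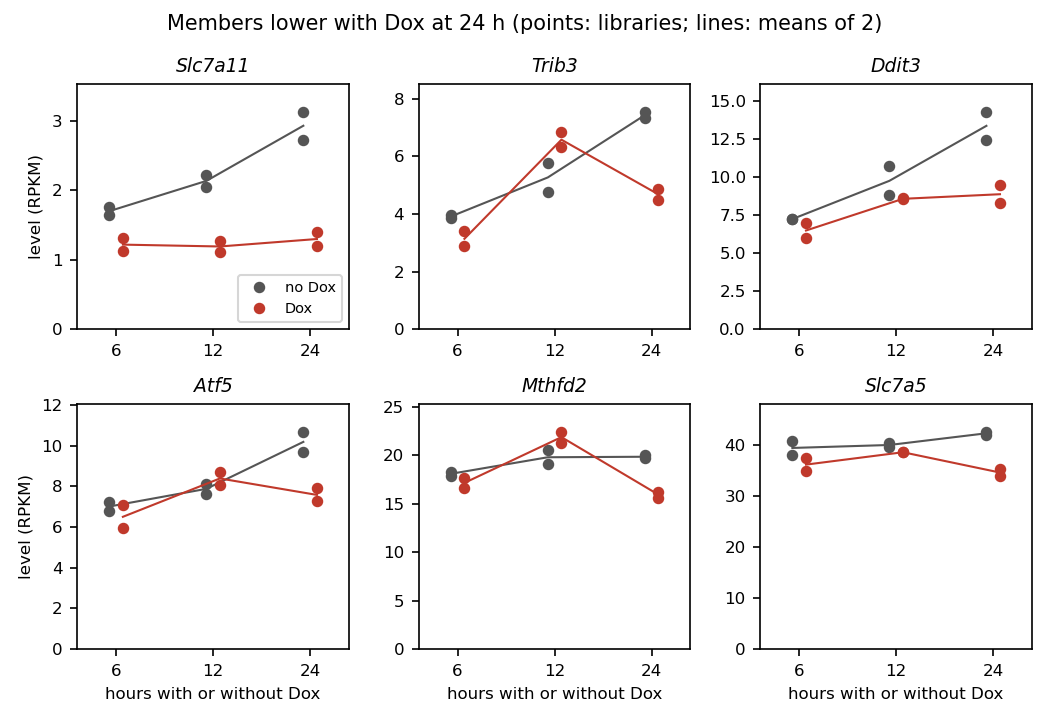
RPKM (y axis, from 0) at 6, 12 and 24 h (x axis) for the 6 members called lower with Dox at 24 h, with a point for each library and lines through the means of 2 libraries, grey without Dox and red with Dox. Slc7a11 lies apart at all hours, from 1.31 and 1.13 RPKM with Dox against 1.76 and 1.64 RPKM without it at 6 h, while the arms of Trib3 cross between 6 and 12 h and again between 12 and 24 h.

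The other 4 transporters included 1 more called gene. Slc7a5 (ENSMUSG00000040010, chromosome 8, 121881150 to 121907694, minus strand) encodes LAT1, which imports leucine and other large neutral amino acids. At 24 h it was 41.9 and 42.5 RPKM without Dox and 33.9 and 35.2 RPKM with Dox, with no overlap. The log2 fold change was -0.28 ± 0.05 (adjusted p = 0.00046), and no Dox call was made for it at 6 or 12 h. Its partner Slc3a2, the heavy chain shared with SLC7A11, had a fold change of -0.12 ± 0.06 that did not pass (adjusted p = 0.23), with 43.6 and 41.0 RPKM without Dox and 39.5 and 37.4 RPKM with Dox. The 24 h libraries of Slc3a2 also did not overlap. The arginine and lysine importers Slc7a1 and Slc7a3 had 24 h fold changes of 0.12 ± 0.07 (adjusted p = 0.31) and -0.11 ± 0.18 (adjusted p = 0.80). Without Dox replicate 1 at 24 h, Slc7a1 was called higher, at 0.25 (adjusted p = 0.023).

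At 24 h, 3 of the 6 regulators fell with Dox: Trib3, Ddit3 and Atf5. Trib3 (ENSMUSG00000032715, chromosome 2, 152337422 to 152344032, minus strand) encodes a pseudokinase that is induced by ATF4 and CHOP and dampens ATF4 activity. At 6 h it was 3.85 and 3.98 RPKM without Dox and 3.40 and 2.87 RPKM with Dox. At 12 h it was 5.78 and 4.75 RPKM without Dox and 6.85 and 6.31 RPKM with Dox. At 24 h it was 7.55 and 7.31 RPKM without Dox and 4.48 and 4.87 RPKM with Dox. The Dox libraries were the lower ones at 6 and 24 h and the higher ones at 12 h, with no overlap at any hour. The fold change on the log2 scale was -0.32 ± 0.14 at 6 h (adjusted p = 0.42), 0.35 ± 0.12 at 12 h (adjusted p = 0.084) and -0.66 ± 0.12 at 24 h (adjusted p = 0.00031), and only the last passed. The Dox effect at 24 h differed from that at 12 h by -1.02 ± 0.18 (adjusted p = 0.0013).

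Ddit3 (ENSMUSG00000025408, chromosome 10, 127290774 to 127296288, plus strand) encodes CHOP, a C/EBP family factor that acts with ATF4 and is tied to cell death under prolonged stress. At 24 h it was 14.3 and 12.4 RPKM without Dox and 8.29 and 9.43 RPKM with Dox, with no overlap. The fold change was -0.58 ± 0.11 (adjusted p = 0.00046), after -0.16 at both 6 and 12 h, where it did not pass. At 6 h its libraries were at 7.26 and 7.20 RPKM without Dox and 6.94 and 6.01 RPKM with Dox. At 12 h they were at 10.7 and 8.79 RPKM without Dox and 8.60 and 8.52 RPKM with Dox. Untreated cells thus held the 2 highest Ddit3 libraries of the series, both at 24 h. Ddit3 overlaps Mars on the opposite strand, and the strand setting of the counting is not given in the sources used here. Mars itself had a 24 h fold change of -0.08 ± 0.06 (adjusted p = 0.51).

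Atf5 (ENSMUSG00000038539, chromosome 7, 44812257 to 44816658, minus strand) encodes a factor related to ATF4 that is linked to the mitochondrial stress response. At 24 h it was 10.7 and 9.67 RPKM without Dox and 7.89 and 7.26 RPKM with Dox, and the fold change was -0.39 ± 0.11 (adjusted p = 0.013). The libraries did not overlap, but leaving out untreated replicate 1 (adjusted p = 0.13) or Dox replicate 2 (adjusted p = 0.11) ended the call. Atf5 overlaps Nup62 and Il4i1 on the opposite strand, so its reads are uncertain. Nupr1, a small stress-induced chromatin protein, had the lowest level of the regulators, with 3 to 55 counts per library. Its 24 h fold change was -1.06 ± 0.40 (adjusted p = 0.094). Atf3, a repressor and partner of the response, had a fold change of 0.13 ± 0.09 at 24 h (adjusted p = 0.43).

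Atf4 (ENSMUSG00000042406, chromosome 15, 80255184 to 80257540, plus strand) had the highest median level of the 35 members, 108.1 RPKM. At 6 h it was 116 and 125 RPKM without Dox and 103 and 108.3 RPKM with Dox. At 12 h it was 119.0 and 106 RPKM without Dox and 109 and 110.0 RPKM with Dox. At 24 h it was 108 and 100 RPKM without Dox and 92.2 and 91.4 RPKM with Dox. The Dox libraries lay below the untreated ones at 6 and 24 h and between them at 12 h. The fold changes of -0.17 ± 0.06 at 6 h (adjusted p = 0.18), -0.04 at 12 h (adjusted p = 0.78) and -0.16 ± 0.06 at 24 h (adjusted p = 0.071) did not pass. The 24 h value passed with no filter on low counts (adjusted p = 0.049) and with only the 24 h libraries in the fit (adjusted p = 0.033).

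In amino acid synthesis, 1 of 10 members fell at 24 h. Mthfd2 (ENSMUSG00000005667, chromosome 6, 83305691 to 83317606, minus strand) encodes a mitochondrial enzyme of folate metabolism. It was 20.0 and 19.7 RPKM without Dox and 16.2 and 15.7 RPKM with Dox at 24 h, with no overlap. The fold change was -0.30 ± 0.07 (adjusted p = 0.003). At 12 h the order was the other way, with 20.5 and 19.1 RPKM without Dox and 22.5 and 21.3 RPKM with Dox, a difference that did not pass. The Dox effect at 24 h differed from that at 12 h by -0.45 ± 0.10 (adjusted p = 0.011). Asparagine synthetase (Asns) and the serine pathway genes Phgdh, Psph, Psat1 and Shmt2 had 24 h fold changes from -0.24 to -0.10, and none passed. Cbs, which makes cystathionine from homocysteine, was called higher at 12 h on few counts: 3 and 9 without Dox and 41 and 19 with Dox. Its fold change of 2.19 ± 0.54 (adjusted p = 0.01) was lost in 5 of the 12 alternatives that gave an adjusted p, among them leaving out untreated replicate 1 (0.064), untreated replicate 2 (0.12) or Dox replicate 1 (0.086).

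Among the stress effectors, Vldlr (ENSMUSG00000024924, chromosome 19, 27216484 to 27254231, plus strand), a lipoprotein receptor that is also a target of ATF4, was called at 12 h and not at 6 or 24 h. It was then 1.67 and 1.54 RPKM without Dox and 2.07 and 2.15 RPKM with Dox. The fold change was 0.40 ± 0.11 (adjusted p = 0.03), with no overlap. This call was lost in 7 of 14 alternatives, including without any 1 of the 4 libraries at 12 h, where the adjusted p was 0.051 to 0.25. At 24 h Vldlr was 1.5 and 1.46 RPKM without Dox and 1.37 and 1.02 RPKM with Dox, with no overlap and a fold change of -0.26 ± 0.12 that did not pass (adjusted p = 0.21). Without Dox replicate 1 at 24 h it was called lower, at -0.51 (adjusted p = 0.028). Chac1, which breaks down glutathione, and Sesn2, which restrains mTORC1 when leucine is low, had no Dox call at any hour, with fold changes from -0.06 to 0.16.

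The 11 tRNA synthetase genes showed the narrowest range of the member groups. These enzymes attach amino acids to their tRNAs. Their highest group mean was 1.07 to 1.30 times their lowest (median 1.15), compared with a median of 1.34 over 15333 tested genes and with 1.24 to 5.54 (median 1.81) for the 6 regulators. Such ratios also hold counting noise, which was not separated here. The 5.54 is that of Nupr1, with 3 to 55 counts per library, while the synthetases had 353 to 12865. Iars, for isoleucine, was the only one called with Dox, at 12 h. It was then 25.2 and 24.9 RPKM without Dox and 29.7 and 28.7 RPKM with Dox, a fold change of 0.22 ± 0.05 (adjusted p = 0.0093). The 2 Dox libraries at 12 h were the 2 highest of all 12 for Iars. The call was lost without Dox replicate 1 (adjusted p = 0.12) or untreated replicate 2 (adjusted p = 0.063). At 24 h, 10 of the 11 synthetase genes had a fold change below 0, with a median of -0.09 and a range from -0.17 to 0.08. In edgeR's quasi-likelihood test 0 of the 11 were called. An unadjusted p under 0.05 was found for 3 of the 11, and for 3277 of all 15347 tested genes. Wars, for tryptophan, which interferon also induces, was the 1 above 0, at 0.08 ± 0.06 (adjusted p = 0.48). It was 28.1 and 29.2 RPKM without Dox and 29.3 and 31.2 RPKM with Dox at 24 h, while the interferon list was lower in all 12 of its genes.

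Levels of the synthetases differed far more between genes than between groups. Their median RPKM ran from 5.95 for Cars, for cysteine, to 67.3 for Gars, for glycine. Eprs, for glutamate and proline, and Nars, for asparagine, stood near Gars. The transcript length behind the deposited RPKM, as implied by counts and RPKM, was 10094 bases for Aars and 12229 bases for Slc7a11, so the order of levels between genes rests on the gene models that the authors used.

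**Figure D3:**
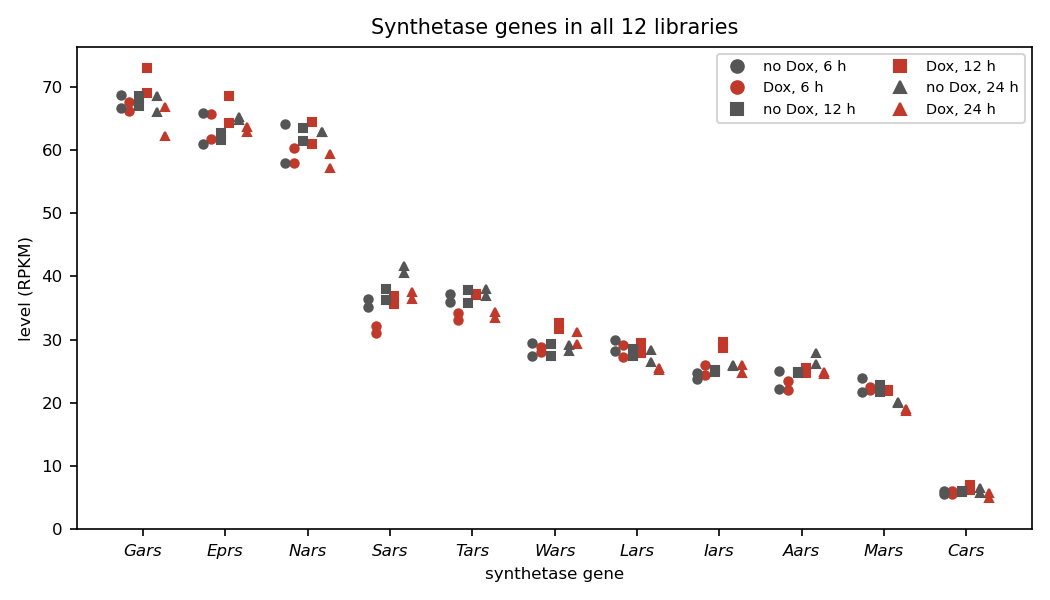
RPKM (y axis, from 0) of the 11 synthetase genes (x axis, in order of mean level) in all 12 libraries, with 1 point for each library, symbols for the hour and colours for Dox. The points of each gene form a narrow cluster compared with the distance between genes, and the red squares of Iars (Dox at 12 h, 29.7 and 28.7 RPKM) lie above its other points.

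Many of the members changed between hours in both arms. Between 6 and 24 h without Dox, 10 members rose and 6 fell, where 40.9% of all tested genes were called, 21.3% as higher and 19.6% as lower. In the Dox arm, 6 rose and 5 fell, where 39.3% were called, 19.4% higher and 19.9% lower. The share of members called was 45.7% without Dox and 31.4% with Dox, so neither count stands far from the background. All 6 regulators were called without Dox: the largest rises among them were Nupr1 (1.85 ± 0.45, adjusted p = 0.0013), Trib3 (0.93 ± 0.13, adjusted p = 9.3e-07) and Ddit3 (0.87 ± 0.12, adjusted p = 4.9e-07). With Dox 3 of the 6 regulators were called, with Trib3 at 0.58 ± 0.14 (adjusted p = 0.0013), Ddit3 at 0.45 ± 0.12 (adjusted p = 0.0041) and Atf4 at -0.21. Atf5 rose by 0.54 ± 0.11 without Dox (adjusted p = 0.00021), and with Dox its change of 0.21 did not pass. The difference of the Dox effects between 24 and 6 h was -0.42 ± 0.17 for Ddit3 (adjusted p = 0.30), so for this gene the courses of the arms were not shown to differ. Atf3 fell without Dox, at -0.26 ± 0.09 (adjusted p = 0.015). Atf4 itself fell in both arms, by 0.21 on the log2 scale, from 116 and 125 to 108 and 100 RPKM without Dox. Without Dox the count of 16 members dropped to 8 when replicate 1 at 6 h was left out, and with Dox the count of 11 dropped to 7 without replicate 2 at 6 h. Cell type and cycle markers changed over the same hours. Without Dox, all 12 interferon response genes, 11 of 12 myeloid, 9 of 12 erythroid and 7 of 8 tested megakaryocyte markers rose and none of these lists had a fall, while 8 of 12 endothelial markers fell and 1 rose. With Dox, 10 interferon genes and 9 myeloid markers rose and none fell, 5 megakaryocyte markers rose and 1 fell, 3 erythroid markers rose and 3 fell, and 6 endothelial markers fell and 0 rose. Of 10 smooth muscle and mesenchyme markers, 5 rose and 3 fell in each arm. Of 12 genes of G1/S and DNA replication, 11 fell and 0 rose in each arm. Their median log2 fold change was -0.47 without Dox and -0.54 with Dox. Their summed level went from 1387 to 1426 CPM at 6 h to 1041 to 1060 CPM at 24 h without Dox, and from 1342 to 1373 CPM to 930.5 to 992 CPM with Dox. The part of these groups in the members' rises and falls was not tested.

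Psat1 (ENSMUSG00000024640, chromosome 19, 15904678 to 15947337, minus strand), the serine pathway transaminase, had the largest fall of the course in both arms. Without Dox it was 52.2 and 49.1 RPKM at 6 h, 44.9 and 41.9 RPKM at 12 h and 31.9 and 30.9 RPKM at 24 h. With Dox it was 48.1 and 50.8 RPKM at 6 h, 42.3 and 42.7 RPKM at 12 h and 29.8 and 28.2 RPKM at 24 h. The libraries of the hours did not overlap within either arm. From 6 to 24 h the fold change was -0.69 ± 0.05 without Dox (adjusted p = 1.8e-11) and -0.77 ± 0.05 with Dox (adjusted p = 3.2e-12). Sesn2 rose by 0.58 ± 0.07 without Dox and by 0.57 ± 0.07 with Dox, from 20.9 and 24.5 RPKM to 33.6 and 33.5 RPKM in untreated cells. The proline pathway genes Aldh18a1 and Pycr1 rose without Dox by 0.49 ± 0.08 and 0.73 ± 0.17, and Aldh18a1 rose with Dox by 0.31 ± 0.08 (adjusted p = 0.0014). Cth, which releases cysteine from cystathionine, fell in both arms, at -0.45 ± 0.16 without Dox (adjusted p = 0.024) and -0.53 ± 0.16 with Dox (adjusted p = 0.0092). Phgdh, the entry enzyme of serine synthesis, fell without Dox at -0.26 ± 0.10 (adjusted p = 0.042), and the transporter Slc7a3 rose with Dox by 0.53 ± 0.19 (adjusted p = 0.031).

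**Figure D4:**
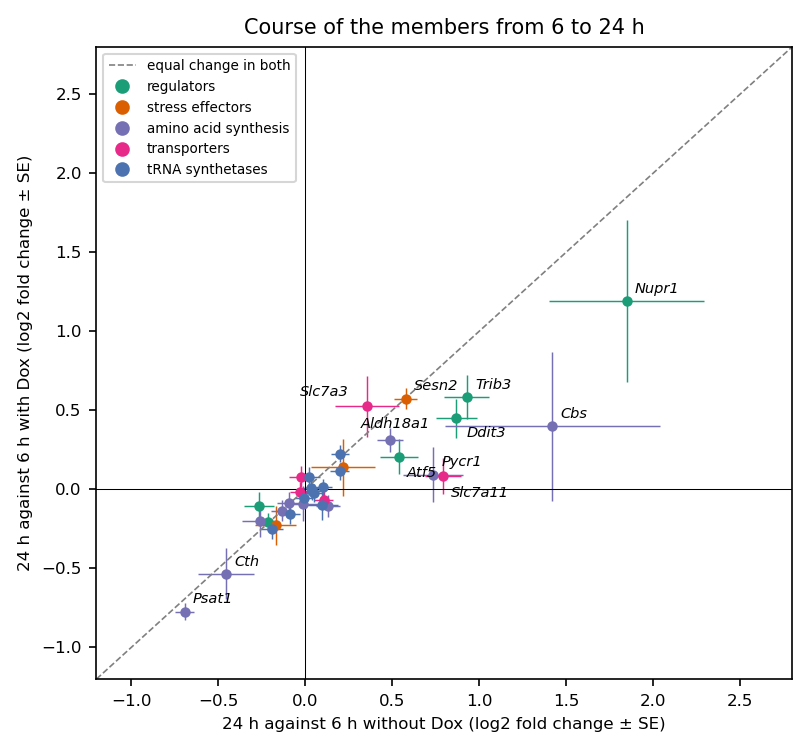
Log2 fold change from 6 to 24 h without Dox (x axis) and with Dox (y axis) for the 35 members, with SE bars, colours for the role and a dashed line where both changes are equal. Slc7a11, at 0.79 without and 0.08 with Dox, lies below the line, as do Trib3, Ddit3 and Nupr1, while Psat1 and Sesn2 lie near it.

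Within the synthetases the course was uneven. Sars, for serine, rose in both arms, by 0.20 ± 0.05 without Dox (adjusted p = 0.0029) and 0.23 ± 0.05 with Dox (adjusted p = 0.0012). Aars, for alanine, rose without Dox by 0.20 ± 0.06 (adjusted p = 0.0049). Mars, for methionine, fell in both arms, at -0.19 ± 0.06 (adjusted p = 0.016) and -0.25 ± 0.06 (adjusted p = 0.0021), and Lars, for leucine, fell with Dox at -0.16 ± 0.06 (adjusted p = 0.035). Of 12 other cytosolic synthetase and synthetase complex genes, 0 rose and 8 fell without Dox over the same hours, against 2 risen and 1 fallen of the 11 member synthetases. With Dox the counts were 0 risen and 7 fallen of those 12, and 1 risen and 2 fallen of the 11.

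Along the steps of the Dox course, 6 members rose from 6 to 12 h and fell from 12 to 24 h: Asns, Iars, Mthfd2, Shmt2, Trib3 and Vldlr. They are 17.1% of the members, and 63 of 15347 tested genes (0.411%) had this order of calls. Taken alone, the earlier step had 12 of 35 members risen and 2 fallen, and the later one 0 risen and 9 fallen. Of all genes, 8.84% rose at the earlier step and 5.98% fell at the later one. Without Dox it was 0 of 35 members and 9 genes in all (0.0586%). This pattern was chosen after the values were seen, and both steps share the 12 h Dox libraries, so a high 12 h value alone favours it. Trib3 rose by 1.07 ± 0.13 on the log2 scale and then changed by -0.49 ± 0.12. Mthfd2 rose by 0.33 and then changed by -0.43 ± 0.07, and Vldlr rose by 0.53 and then changed by -0.76. Asns, Shmt2 and Iars moved less, with rises of 0.19, 0.20 and 0.19 and later changes of -0.28, -0.33 and -0.18. For Asns the Dox libraries were 27.1 and 25.7 RPKM at 6 h, 31.9 and 29.3 RPKM at 12 h and 24.4 and 25.6 RPKM at 24 h. For Shmt2, which passes serine's carbon to folate, they were 34.9 and 33.9, then 42.0 and 38.3, then 32.0 and 30.7 RPKM. The summed level of the 12 erythroid markers peaked at the same hour in this arm, at 1341 to 1416 CPM at 6 h, 2067 to 2189 CPM at 12 h and 1279 to 1557 CPM at 24 h, with 12 h clear of both other hours. Of these markers 3 rose and 0 fell at the earlier step, and 1 rose and 5 fell at the later one, and their part in the members' pattern was not tested. The count fell from 6 to 2 without Dox replicate 1 at 12 h and to 3 without Dox replicate 2 at 6 h.

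**Figure D5:**
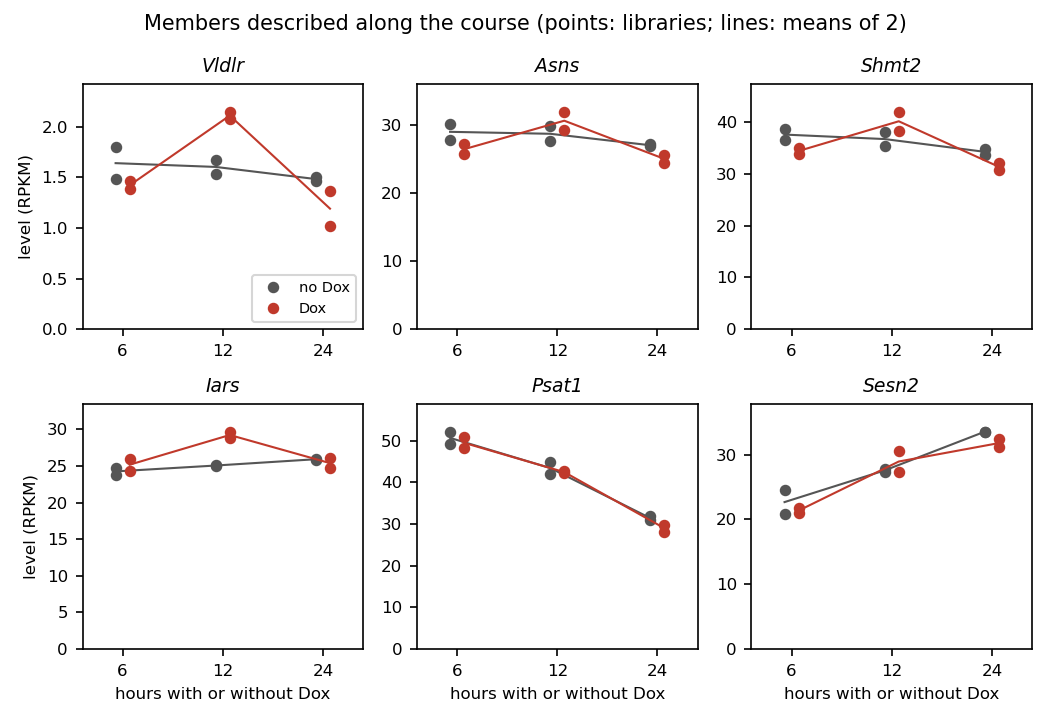
RPKM (y axis, from 0) at 6, 12 and 24 h (x axis) for Vldlr, Asns, Shmt2, Iars, Psat1 and Sesn2, with a point for each library and lines through the means of 2 libraries, grey without Dox and red with Dox. The red lines of Vldlr, Asns, Shmt2 and Iars peak at 12 h, while both arms of Psat1 fall together from 52.2 and 49.1 RPKM without Dox at 6 h and both arms of Sesn2 rise.

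The change of the Dox effect between hours was tested directly. From 12 to 24 h it was called lower for Trib3, Mthfd2 and Vldlr and higher for 0 members, where 1.02% of all tested genes were called lower and 1.21% in either direction. Vldlr differed by -0.66 ± 0.17 (adjusted p = 0.042), a call lost in 11 of 18 alternatives. In 6 of these 11 a library was left out, either Dox library or untreated replicate 2 at 12 h, either untreated library or Dox replicate 2 at 24 h, with adjusted p from 0.075 to 0.25. The call for Mthfd2 was lost in 6 of 18, 5 of them leaving out a library: Dox replicate 1 at 12 h (adjusted p = 0.13), untreated replicate 2 at 12 h (0.12), untreated replicate 1 or 2 at 24 h (0.067 and 0.062) or Dox replicate 2 at 24 h (0.053). That for Trib3 was lost in 1 of 18. Between 6 and 12 h, 0 members were called in edgeR's quasi-likelihood test, where 0.417% of all tested genes were. In the same test 1563 of all 15347 tested genes had an unadjusted p under 0.05. Of the members, 7 had an unadjusted p under 0.05 there, and DESeq2 and limma also called 0, while 1 was called with no filter on low counts (Vldlr) and 1 without untreated replicate 1 at 12 h (Trib3).

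Other genes of the pathway were read from lists that also held the eIF2 kinases and related stress responses. Of 19 tested other ATF4 target genes, 5 were lower and 0 higher with Dox at 24 h: Cebpb (-0.79 ± 0.09), a C/EBP factor that can partner ATF4, the glycine transporter Slc6a9 (-0.88 ± 0.15), Pck2 (-0.35 ± 0.10), Mthfd1l (-0.26 ± 0.08) and Jdp2 (-0.23 ± 0.07). The share lower at 24 h was 26.3%, where 6.52% of all tested genes were. This list was chosen with earlier results of these data known, so the share is a description only. Slc6a9 and Cebpb were the 2 called at 6 h too, at -0.86 ± 0.16 and -0.52 ± 0.11. At 12 h Cebpb was lower and the serine transporter Slc1a4 higher, by 0.20 ± 0.06. Of 16 genes of the eIF2 kinases, eIF2 and eIF2B, Gcn1l1, the partner of the amino acid sensor GCN2, was higher at 24 h (0.23 ± 0.05), and the interferon-induced kinase gene Eif2ak2 was lower (-0.64 ± 0.08). A list of 20 endoplasmic reticulum genes held chaperones as well as degradation and stress factors such as Herpud1, Edem1 and Xbp1. Of these 20 genes, 0 were higher with Dox at 6, 12 or 24 h. Called lower were 2 at 6 h (Herpud1 and Calr), 5 at 12 h and 3 at 24 h (Edem1, Calr and Herpud1). That is 10%, 25% and 15% of the list, where 0.717%, 3.51% and 6.52% of all tested genes were lower. Their summed level at 12 h was 6558 to 6590 CPM with Dox and 7103 to 7249 CPM without it. At 24 h, 1 of 12 other cytosolic synthetase genes was called, Rars, higher by 0.17 ± 0.05. Of 17 mitochondrial ones 1 was called at that hour, Lars2, at -0.32 ± 0.07. That is 8.33% and 5.88% of these lists, where 11% of all tested genes were called. At 12 h 1 of the 12 was called, lower, and 0 of the 17 were. At 6 h 0 of the 12 were called and 1 of the 17, which was higher.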

How the data were processed

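Per the labels' protocols, a strand-specific kit was used on 200 ng of total RNA, and libraries were read as single 75-base reads. The submitters' processing notes name GRCm38, edgeR 3.8.5, Bowtie2 2.21, bcl2fastq 2.16.0.10 and SAMtools 0.1.19. For the counting tool, its strand setting and the annotation, details were not given in the sources used here. The authors deposited raw read counts per gene and RPKM values. The RPKM of each library implied a size within 1.33% of its effective size after TMM scaling.

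Counts were filtered with filterByExpr, scaled by TMM and fitted with edgeR 4.0.16 in R 4.3.3 by glmQLFit, with a mean for each of 6 groups over all 12 libraries and 6 residual degrees of freedom. The biological coefficient of variation was 4.71%. P-values from glmQLFTest were adjusted by Benjamini-Hochberg over 15347 genes, with a threshold of 0.05. SE was taken as the log2 fold change over the square root of F. CPM uses effective library sizes. Tested on simulated counts for 15119 genes, the step found 85.1% of 67 genes changed 1.5-fold and 97% of 67 changed 2-fold. Of its calls 6.47% were false. The changed genes were drawn only from those with higher mean counts, and the simulated spread followed the trend without differences between genes. Recovery of genes with few counts, such as Cbs, is thus not shown.

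Members, pathway lists and markers were chosen with earlier results of these data known. Values per library are given for members called with Dox, for Atf4 and for the largest changes of the untreated course. Alternatives were RLE and upper-quartile scaling, 2 other filters, a replicate block, only the compared libraries, DESeq2 1.42.0, limma 3.58.1 on log2 RPKM with a pseudocount of 0.1 or 1, and leaving out each library. Promoters are RefSeq's, GRCm38.p6. Replicate libraries differed by more than counting noise (chi-square per degree of freedom 2.63 to 4.61).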

Additional observations from a re-analysis of the deposited data

Results flagged for a closer look

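For 4 results the Dox effect differed between hours by a test of the difference itself, an interaction in edgeR's quasi-likelihood model. For Slc7a11 the Dox effect at 24 h minus that at 6 h was -0.71 (log2). For the Dox effect at 24 h minus that at 12 h, the value was -1.02 for Trib3, -0.45 for Mthfd2 and -0.66 for Vldlr. No other member passed any of the 3 such tests. Groups of 2 libraries are too small to test for a single outlying library.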

How the results depend on the processing

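The count of members called with Dox at 24 h was 6 to 7 under 10 alternative settings and 5 to 8 when a library was left out, the 8 being 7 lower and 1 higher without Dox replicate 1. With Dox at 6 h it was 0 in limma with either pseudocount, and 0 to 1 when a library was left out. At 12 h it was 2 in DESeq2, which gave Cbs no adjusted p, and 2 in limma with either pseudocount, and 1 to 3 when a library was left out. For the difference of the Dox effects at 24 and 6 h it was 0 in limma with either pseudocount, and 0 to 1 when a library was left out. The cause of these losses was not tested. The course count was 14 to 17 without Dox and 9 to 11 with Dox, and 8 to 15 and 7 to 12 when a library was left out. The count that rose to 12 h and fell to 24 h with Dox was 5 to 6, and 2 to 6 when a library was left out. No result reversed. Libraries left out leave an arm with 1 library, which is assumed to vary like the others.

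In each group, the deviation of replicate 1 from its group mean was taken for every tested gene. These deviations correlated between groups at -0.04 to 0.08 over 15 pairs of groups, so no pairing by replicate number was seen. That does not show that the samples are unpaired. With the replicate block 1, 4 and 6 members were called with Dox at 6, 12 and 24 h, and 16 and 11 in the courses without and with Dox. A block for depth, chosen after seeing the data, gave the same counts. Cbs was not tested under the stricter filter, and Nupr1 and Cbs are limited by their low counts.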
